A study of Rattus norvegicus with 12 samples.

Results

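Cells of the rat colon carcinoma line CC531 that had been in butyrate for 12, 16 or 24 h were compared with cells that had been in aspirin for the same hours. These 6 arrays, 3 for each agent, were chosen by their titles from the 12 arrays of the study and were paired by hour. Butyrate was given at 4.5 mM and aspirin at 3 mM, so the comparison is of these doses and not of equal ones. The other arrays held both agents at 2 and 6 h (4 arrays) and untreated cells at 2 and 24 h (2 arrays). All cells were of the same line, and total RNA was the sample material for every array. The labels do not say whether the arrays came from separate cultures, so p-values here reflect the spread among the arrays alone, and that spread may be technical. The hours were treated as replicates of a late state, so a drift from 12 to 24 h counts as spread.

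Butyrate, a short-chain fatty acid, is made in the gut by bacteria that ferment fibre. Colon epithelial cells burn it as fuel, and it inhibits histone deacetylases, enzymes that remove acetyl groups from histones and other proteins. Aspirin acetylates cyclooxygenases, the enzymes that start prostaglandin synthesis. At the doses used in cell culture it is also broken down to salicylate, which has targets of its own. Both have long been studied as agents that may slow the growth of colon tumours.

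The late arrays of both agents held bright readings of epithelial marker genes, though not of all of them. Of 13 colon epithelial marker genes on the array 12 were tested, which does not show that they were bright. The summed intensity of the list was 85020 to 99050 with butyrate and 98910 to 106500 with aspirin. The keratin gene Krt8 read 15798 to 16016 with butyrate and 12225 to 14070 with aspirin. Epcam read 8234 to 12088 with butyrate and 14589 to 16734 with aspirin. Krt20 read 53.9 to 251 on the late arrays and Cdx1 −222 to −133. Markers of blood and immune cells summed to 3243 to 3576 with butyrate and 6652 to 12080 with aspirin. That gap was carried by Cd14, the lipopolysaccharide co-receptor, whose probe sets read 313 to 952 with butyrate and 2212 to 5369 with aspirin, while of the 3 probe sets of the pan-leukocyte marker Ptprc one read 225 to 388 on the late arrays and the others at most 4.8; the part of these markers in the results was not tested. Markers of fibroblasts and smooth muscle summed to 8937 to 11230 and 9020 to 10210, and those of endothelium to 2328 to 2568 and 2098 to 3126, in the same order. Hepatocyte markers summed to 5430 to 7988 and 4053 to 4921. Among the markers of fibroblasts and smooth muscle, the brightest were Vim, at 2286 to 4306, and an Acta2 probe set, at 2424 to 3835 on the late arrays. Other members were dimmer. The other Acta2 probe sets read 78.7 to 258 and −190 to −80.1, and a Col1a1 probe set 89.5 to 1615. Tagln read at most 105, Pdgfrb at most 28.9 and Postn at most 2.1.

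Late butyrate and late aspirin differed over a large part of the array. Of 6118 tested probe sets, 1231 (20.1%) were called, that is, had a Benjamini-Hochberg adjusted p under 0.05 by limma. With butyrate 750 (12.3%) were higher and 481 (7.86%) lower than with aspirin, naming 535 and 316 genes, and 0 genes had probe sets called both ways. Of the called probe sets 540 were at least 2-fold higher and 281 at least 2-fold lower, and 121 and 58 at least 4-fold. All 3 butyrate arrays lay on one side of all 3 aspirin arrays for 2576 probe sets (42.1%), 1567 above and 1009 below, and 1187 of the called ones were among these. At single hours the counts of probe sets at least 2-fold higher and lower were 1022 and 449 at 12 h, 802 and 572 at 16 h, and 907 and 568 at 24 h. At all 3 hours 383 were 2-fold higher and 197 were 2-fold lower.

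These counts have limits that hold for every call below. Without the 12, 16 or 24 h pair 0 probe sets were called by limma, with 1794, 1548 and 1725 at an unadjusted p under 0.05 and a smallest adjusted p of 0.0578, 0.102 and 0.0719. A fit of all 12 arrays by group means, with no pairing by hour, called 1420, and 869 to 1121 when single late arrays were left out. Scaling moved the balance of directions. Of the called probe sets 60.9% were higher with butyrate as deposited, 53.2% after quantile normalization and 34.9% after centring each array on its median, and the median difference of all probe sets went from 0.0838 to −3.06e-05 and −0.183 on the log2 scale. Median centring lowered each list median given below by 0.27. Of all 3647 tested genes 12.8% were called higher and 7.6% lower, and the counts of each list are to be read beside these shares. Without the filter on dim probe sets 466 were called. Where a gene has several probe sets, a value holds for the probe set it is given for, and others can differ in size, direction or call. Differences below are mean log2 differences, butyrate minus aspirin, with the standard error of the fit (n = 3 pairs). Values under the floor of 90.91 were raised to it before log2, and "at least" marks a difference whose lower side lay at that floor on some or all arrays while every array of the other side lay above it, for differences below 0 in size.

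**Figure D1:**
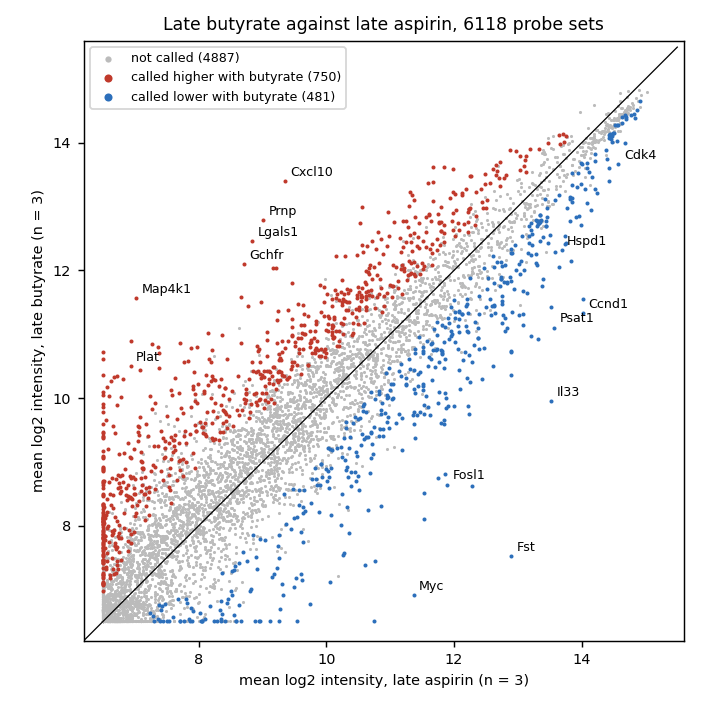
Mean log2 intensity of every tested probe set with late butyrate (vertical axis, n = 3) against late aspirin (horizontal axis, n = 3). Red points are the 750 probe sets called higher with butyrate, blue points the 481 called lower and grey points the rest; the line marks equal levels, and the columns of points at the left and bottom edges are values at the floor.

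The largest differences in the direction of butyrate included the following genes. Map4k1, a kinase of haematopoietic signalling, read 2172, 2685 and 4807 at 12, 16 and 24 h with butyrate and 41.8, 71.3 and 263 with aspirin. The butyrate arrays lay far above the aspirin arrays at each hour, and the difference was at least 4.55 ± 0.43 (adjusted p = 0.00934), while its second probe set gave 2.02 ± 0.30 (adjusted p = 0.015). Cxcl10, an interferon-inducible chemokine that draws T cells, read 11910, 10718 and 9831 with butyrate and 456, 607 and 1011 with aspirin. The groups did not come near each other, and the difference was 4.04 ± 0.49 (adjusted p = 0.0109). Lgals1, the galactoside-binding protein galectin-1, read 3425, 5358 and 9765 against 355, 498 and 539. Its butyrate arrays rank by hour while its aspirin arrays lie close together, and the difference was 3.63 ± 0.39 (adjusted p = 0.00946). Gstm1, a glutathione transferase, read 1017, 2081 and 3310 against 87.7, 136 and 148, which was at least 3.97 ± 0.45 (adjusted p = 0.0101). Its brightest probe set gave 1.73 ± 0.33 (adjusted p = 0.0251), so its probe sets share the direction but not the size. Ceacam4, of the carcinoembryonic antigen family, read 818, 1263 and 2160 against 97.9, 116 and 105, a difference of 3.62 ± 0.40 (adjusted p = 0.01).

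A family of related genes stood among these largest differences. Of the N-myc downstream-regulated genes, Ndrg4 read 1457, 1524 and 1702 with butyrate on one probe set and was below the floor there on every aspirin array, a difference of at least 4.10 ± 0.60 (adjusted p = 0.0144). Its second probe set read 2859, 3286 and 3076 against 329, 486 and 410, with 2.93 ± 0.42 (adjusted p = 0.0137). Ndrg2, a member lost in many tumours, read 851, 1175 and 1307 with butyrate and was again below the floor with aspirin, at least 3.59 ± 0.42 (adjusted p = 0.0108). Ndrg3 read 1765, 1846 and 1894 with butyrate and 222, 140 and 118 with aspirin, a difference of 3.57 ± 0.35 (adjusted p = 0.00934). So all 3 were higher with butyrate, Ndrg4 by unequal sizes on its probe sets, and on the 2 untreated arrays the probe sets given first read −116 to 242. The enzymes Mpst, which transfers sulfur to cyanide and proteins, and Sord, which turns sorbitol into fructose, were higher by at least 3.64 ± 0.47 (adjusted p = 0.0122) and at least 3.40 ± 0.26 (adjusted p = 0.00934), the latter with 2.25 on a second probe set. Dnm1, the neuronal form of the membrane-cutting GTPase dynamin, read 1361, 1225 and 930 against 26.2, 103 and −13.4, at least 3.61 ± 0.44 (adjusted p = 0.0109).

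**Figure D2:**
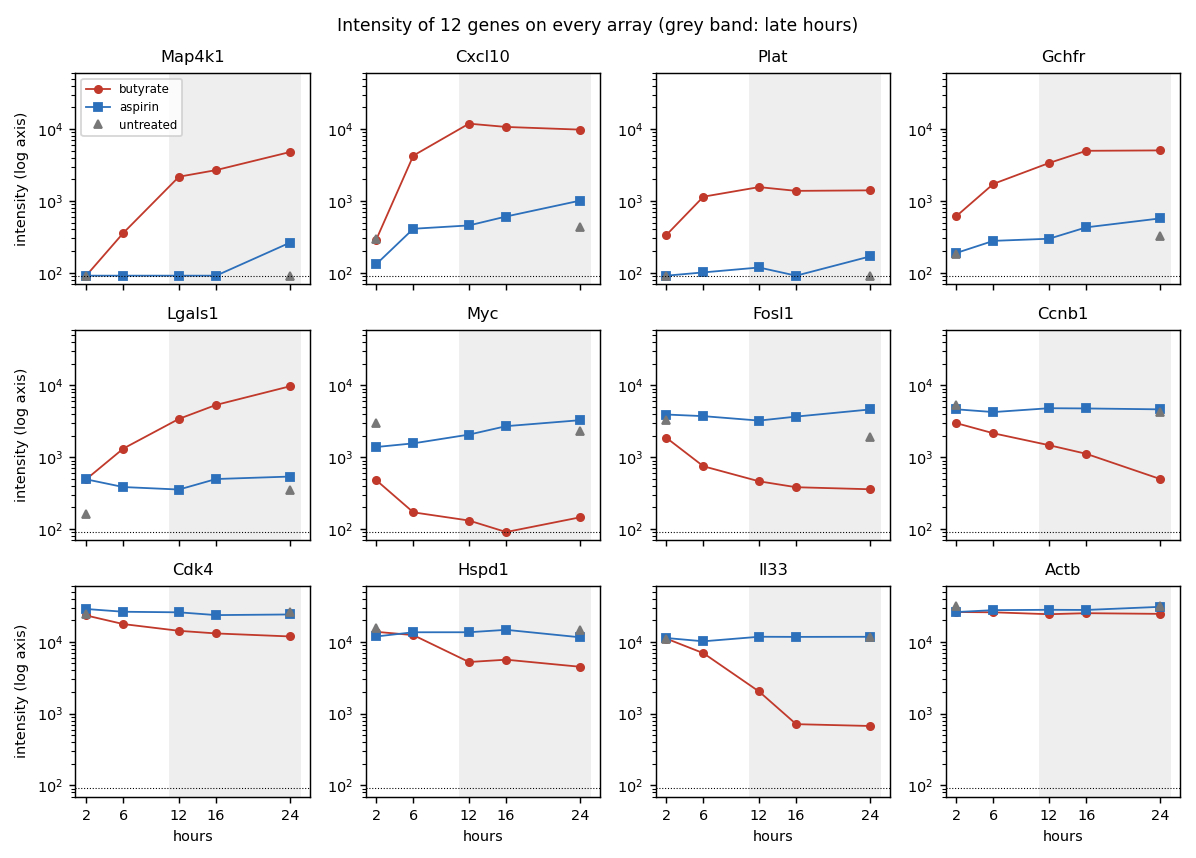
Intensity (log axis) of 12 genes on every array against hours of treatment, with butyrate in red, aspirin in blue and untreated cells as grey triangles; the grey band marks the late hours and the dotted line the floor, to which lower values were raised. In the late band the red and blue points are apart for each of the 12 genes, by the least for Actb, which was not called.

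Genes that make and control tetrahydrobiopterin were among the large differences. This cofactor is needed by nitric oxide synthases and by the enzymes that hydroxylate aromatic amino acids. Gch1, whose product catalyses the first step of its synthesis, read 3771, 4635 and 4309 with butyrate and 596, 459 and 765 with aspirin. The difference was 2.83 ± 0.40 (adjusted p = 0.0137), and a second probe set gave at least 2.81 ± 0.50 (adjusted p = 0.0214), while another, near the floor, gave 0.57 ± 0.21 (adjusted p = 0.112). Gchfr, the feedback regulator that binds that enzyme, read 3373, 4987 and 5051 against 297, 428 and 571, a difference of 3.40 ± 0.24 (adjusted p = 0.00934). Butyrate arrays were thus above aspirin arrays for the enzyme and for its regulator alike. Of the 13 tested genes on tetrahydrobiopterin and nitric oxide, 4 were called higher, 0 lower and 9 neither, with a median difference of 0.63 against 0.10 for all 3647 tested genes, of which 12.8% were called higher and 7.6% lower. The other 2 called members handle arginine and its derivatives. Arg2, the mitochondrial arginase, was higher by at least 2.91 ± 0.52 (adjusted p = 0.0217), and Ddah1, which breaks down methylated arginine, by 0.77 ± 0.14 (adjusted p = 0.0214), though a dimmer Ddah1 probe set gave −0.19 (adjusted p = 0.584).

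The promoters of Gch1, Gchfr and Prnp are shown because these genes were much higher with butyrate and had a promoter in the RefSeq table; the table used here held 3010 of the 3647 tested genes. Each sequence is the 200 bases before the gene's start in GRCr8, 5′ to 3′ on the gene's strand. Gch1 lies at chr15:22917413-22917612, minus strand, Gchfr at chr3:126611692-126611891, plus strand, and Prnp at chr3:139638876-139639075, plus strand. Capitals mark exact matches, on either strand, to the GC box GGGCGG, to the E-box CACGTG, to the cyclic AMP response element TGACGTCA or to the AP-1 site TGACTCA; matches to the GC box may overlap.
Gch1: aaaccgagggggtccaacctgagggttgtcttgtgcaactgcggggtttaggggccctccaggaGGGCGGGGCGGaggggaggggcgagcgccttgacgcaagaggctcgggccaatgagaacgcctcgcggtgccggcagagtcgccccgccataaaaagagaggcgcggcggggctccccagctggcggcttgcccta
Gchfr: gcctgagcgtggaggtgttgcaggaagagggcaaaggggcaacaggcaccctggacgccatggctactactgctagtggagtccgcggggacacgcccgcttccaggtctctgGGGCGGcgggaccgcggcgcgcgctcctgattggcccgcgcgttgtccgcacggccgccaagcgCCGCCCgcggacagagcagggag
Prnp: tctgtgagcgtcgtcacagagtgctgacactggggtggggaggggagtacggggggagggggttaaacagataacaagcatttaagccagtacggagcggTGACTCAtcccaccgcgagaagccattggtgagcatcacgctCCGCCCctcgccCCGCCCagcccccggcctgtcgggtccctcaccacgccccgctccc
Each of the 3 windows held 2 GC boxes, and that of Prnp held 1 AP-1 site as well. A GC box was in 62.9% of 442 promoters of genes called higher, 64.5% of 259 called lower, 54.3% of the 3010 tested and 30.4% of all 27457 RefSeq promoters cut to the same length. An AP-1 site was in 2.94%, 2.7%, 3.09% and 3.13% in the same order. These are letter matches in the sequence, and no binding was measured.

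Prnp, the prion protein gene, read 6031, 7372 and 7999 with butyrate and 465, 289 and 1015 with aspirin, a difference of 3.78 ± 0.55 (adjusted p = 0.0143). It belongs to a list of genes known from neurons, of which 8 of 35 tested were called higher and 1 lower, with a median difference of 0.57 that was 0.31 with quantile normalization and 0.14 to 0.57 over 8 alternative settings. The microtubule-binding gene Mapt, which encodes tau, read 892, 1474 and 1722 with butyrate and was below the floor on every aspirin array on one probe set, at least 3.85 ± 0.55 (adjusted p = 0.0138). On another it read 1347, 1923 and 2157 against 232, 117 and 164, a difference of 3.43 ± 0.71 (adjusted p = 0.03). Its partner in the list Map2, also a microtubule-associated protein, was higher by 2.61 ± 0.36 (adjusted p = 0.0134). Vgf, a nerve growth factor-inducible secreted peptide precursor, was higher by 2.44 ± 0.42 (adjusted p = 0.0194), and Aplp2, of the amyloid precursor family, by 1.77 ± 0.20 (adjusted p = 0.0101). The 1 member called lower with butyrate was Grin1, an NMDA receptor subunit, at −1.44 ± 0.17 (adjusted p = 0.0109). Another Grin1 probe set, at the floor on 2 butyrate and 3 aspirin arrays, gave 0.45 ± 0.29 (adjusted p = 0.322). So the microtubule, secreted and surface genes named here, all called, had a common direction, and the called Grin1 probe set had the other. Of the 35 tested genes 26 were not called.

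In the other direction the transcription factor Myc, a driver of growth and ribosome synthesis, was among the largest differences. Its brighter probe set read 556, 388 and 367 with butyrate and 3318, 3235 and 3844 with aspirin, a difference of −3.01 ± 0.22 (adjusted p = 0.00934). The other read 132, 69.0 and 146 against 2068, 2711 and 3285, a difference of at least −4.46 ± 0.39 (adjusted p = 0.00934). Both probe sets were low on each of the 3 butyrate arrays and the groups did not overlap. Fst, follistatin, which binds and blocks activin, was lower on both of its probe sets. One read 294, 367 and 568 against 4749, 5092 and 5031, a difference of −3.65 ± 0.38 (adjusted p = 0.00934), and the other gave at least −5.37 ± 0.83 (adjusted p = 0.0162). Fosl1, an AP-1 subunit, read 463, 383 and 358 against 3241, 3685 and 4637, a difference of −3.26 ± 0.30 (adjusted p = 0.00934). Il33, a nuclear alarmin cytokine of epithelia, read 2033, 713 and 673 with butyrate and 11760, 11708 and 11749 with aspirin, a difference of −3.57 ± 0.34 (adjusted p = 0.00934). Its aspirin arrays were nearly equal, and its butyrate array at 12 h was the highest of the 3. G0s2, an inhibitor of triglyceride lipase, was below the floor on all 3 butyrate arrays and read 1044, 1829 and 2634 with aspirin, a difference of at least −4.24 ± 0.35 (adjusted p = 0.00934).

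Further genes lower with butyrate came from signalling, stress and the surface of the cell. Cd14 was lower on both probe sets, by −3.04 ± 0.58 (adjusted p = 0.0243) and −1.91 ± 0.28 (adjusted p = 0.0145). Tspan8, a tetraspanin of gut epithelium named after its values were seen, read 2215, 1930 and 1902 against 9431, 9295 and 9812, a difference of −2.24 ± 0.20 (adjusted p = 0.00934). The G protein subunit Gna15 differed by −2.93 ± 0.45 (adjusted p = 0.0162) and the stress-induced chromatin protein Nupr1 by at least −2.98 ± 0.29 (adjusted p = 0.00934). Ptpmt1, a phosphatase of mitochondrial cardiolipin synthesis, read 413, 338 and 345 against 2876, 3107 and 2907, a difference of −3.02 ± 0.34 (adjusted p = 0.01). Where a gene had several probe sets these did not always have the same result. For Sod1, the cytosolic superoxide dismutase, the probe set with the largest difference gave −2.72 ± 0.63 (adjusted p = 0.0402) and its brightest one −0.47 (adjusted p = 0.0402).

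Genes of cell division and DNA replication were lower with butyrate as a group. Of 29 tested, 14 were called lower, 1 higher and 14 neither, the median difference was −1.03, and only 2 had a value above 0. Ccnb1, cyclin B1, which takes cells into mitosis, read 1472, 1118 and 496 with butyrate and 4820, 4785 and 4647 with aspirin, a difference of −2.35 ± 0.30 (adjusted p = 0.0122). Its butyrate values lay lower at each later hour, while its aspirin values stayed within a narrow band. The same held for Cdk1, its kinase partner, at 2481, 1380 and 609 against 4750, 4482 and 4957, a difference of −1.89 ± 0.44 (adjusted p = 0.0399), and for Cdc20, an activator of the anaphase-promoting complex, at −1.88 ± 0.28 (adjusted p = 0.015). Pcna, the sliding clamp of DNA polymerases, read 8206, 6771 and 5450 against 18234, 16846 and 14031, a difference of −1.28 ± 0.07 (adjusted p = 0.00934). Mcm6, of the replicative helicase, differed by −1.65 ± 0.23 (adjusted p = 0.0131). Tyms, which makes thymidylate, and Ung, which removes uracil from DNA, were below the floor on every butyrate array. Cdk4, the kinase of the D cyclins, read 14231, 13079 and 11873 against 25746, 23553 and 24038, a difference of −0.91 ± 0.08 (adjusted p = 0.00934). The 1 gene called higher was Cdk2, whose probe sets disagree: one gave 1.31 ± 0.24 (adjusted p = 0.0223) and the other −0.23 ± 0.22 (adjusted p = 0.486).

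Regulators of the G1 phase went both ways, with 4 of 20 tested called higher, 4 lower and 12 neither. The list's median was 0.08, and −0.19 with median centring. Ccnd1, cyclin D1, read 2731, 2156 and 2922 with butyrate and 15457, 15696 and 18732 with aspirin, a difference of −2.68 ± 0.30 (adjusted p = 0.00989). Of its 5 probe sets 4 were called lower, and the remaining one gave −0.15 ± 0.37 (adjusted p = 0.814). Ccnd3, cyclin D3, went the other way, at 4151, 4379 and 4556 against 2225, 2142 and 1978, a difference of 1.04 ± 0.11 (adjusted p = 0.00934), with 3 of its 4 probe sets called. Ccnd1 and Ccnd3 thus differed in direction in the same cells. The kinase inhibitor gene Cdkn1a, which encodes p21, was dim. It read 412, 321 and 380 with butyrate and 222, −13.0 and 370 with aspirin, with overlapping groups, and its difference of at least 0.92 ± 0.38 was not called (adjusted p = 0.147). Cdkn2b, which encodes the inhibitor p15, was lower with butyrate at −1.33 ± 0.19 (adjusted p = 0.0137), with 579, 728 and 915 against 1323, 1947 and 2398. Txnip, an inhibitor of thioredoxin and of glucose uptake, read 570, 1642 and 4914 against 157, 310 and 95.0, a difference of 3.32 ± 0.77 (adjusted p = 0.0406). The growth arrest transcript Gas5 was lower by −1.22 ± 0.14 (adjusted p = 0.0101).

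The list of Myc, its partners and the nucleolar genes of ribosome assembly went both ways, with 4 of 21 tested called higher, 6 lower, Myc among them, and 11 neither (median −0.37). Mxi1, a repressor that competes with Myc for Max, was higher at 2950, 3313 and 3740 against 1517, 1647 and 1838, a difference of 1.0 ± 0.14 (adjusted p = 0.0137). Max, the shared partner, was higher by at least 2.58 ± 0.42 on one probe set (adjusted p = 0.0175) and by 0.58 ± 0.36 on the other (adjusted p = 0.308), and both were below the floor on every aspirin array. Among the members called lower were nucleolar genes. Dkc1, which modifies ribosomal RNA and binds telomerase RNA, read 787, 569 and 442 against 2420, 3058 and 1730, a difference of −2.01 ± 0.24 (adjusted p = 0.0107). Gnl3, nucleostemin, differed by −1.79 ± 0.20 (adjusted p = 0.0101) and Ncl, nucleolin, by −1.33 ± 0.27 (adjusted p = 0.0288). Odc1, the first enzyme of polyamine synthesis and often named as a target of Myc, was higher with butyrate. It read 8839, 14134 and 16155 against 3829, 1950 and 4637, a difference of 1.96 ± 0.38 (adjusted p = 0.0261), with 1.18 ± 0.23 on its second probe set (adjusted p = 0.0263). Messenger RNAs of cytosolic ribosomal proteins showed little, with 0 of 37 called higher, 3 lower and a median of −0.19 that became 0.0036 with quantile normalization.

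The promoters of Cdk4, Dkc1 and Pcna are shown as examples of growth genes that were lower with butyrate, in the same 200-base windows and with the same capitals. Cdk4 lies at chr7:64771253-64771452, plus strand, Dkc1 at chrX:157751451-157751650, plus strand, and Pcna at chr3:139955821-139956020, minus strand.
Cdk4: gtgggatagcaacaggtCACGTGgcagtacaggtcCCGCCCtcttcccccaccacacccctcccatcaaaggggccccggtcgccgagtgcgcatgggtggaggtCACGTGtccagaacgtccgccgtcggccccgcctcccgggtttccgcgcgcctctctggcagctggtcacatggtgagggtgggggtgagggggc
Dkc1: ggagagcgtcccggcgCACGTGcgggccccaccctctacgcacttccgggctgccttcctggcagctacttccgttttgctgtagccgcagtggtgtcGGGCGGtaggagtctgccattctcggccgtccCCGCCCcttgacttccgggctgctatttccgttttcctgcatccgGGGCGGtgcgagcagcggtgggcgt
Pcna: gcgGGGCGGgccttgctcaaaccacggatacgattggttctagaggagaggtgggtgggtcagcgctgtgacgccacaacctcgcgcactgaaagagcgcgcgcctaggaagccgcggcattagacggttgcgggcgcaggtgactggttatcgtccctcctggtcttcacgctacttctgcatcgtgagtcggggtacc
The window of Cdk4 held 2 E-boxes and 1 GC box, that of Dkc1 held 1 E-box and 3 GC boxes, and that of Pcna held 1 GC box and 0 E-boxes. The windows of Ccnb1, Hspd1, Psat1, Fosl1, Cyp51 and Idi1, also lower with butyrate and not shown, held 0 E-boxes. The E-box CACGTG is the sequence that dimers of Myc and Max are known to bind. It was in 9.27% of 259 promoters of genes called lower, 7.92% of 442 called higher, 7.08% of 3010 tested and 4.88% of all RefSeq promoters of this length. The cyclic AMP response element was in 4.25%, 2.26%, 2.49% and 1.57% in the same order. Binding of these factors was not measured. The promoters of Myc and Ccnd1 are not shown.

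Immediate-early genes, which cells switch on within minutes of a stimulus, were mostly higher with butyrate in value (18 of 24 above 0, median 0.62), with 5 called higher and 3 lower. Rhob, a short-lived small GTPase, read 5650, 6954 and 8091 against 1338, 1605 and 1497, a difference of 2.21 ± 0.14 (adjusted p = 0.00934). Egr1, a zinc-finger factor, was higher by 2.13 ± 0.37 on one probe set (adjusted p = 0.0207), while its brightest probe set read 12488, 11818 and 13948 against 4918, 7551 and 7851 and gave 0.94 ± 0.25 (adjusted p = 0.0562). The 3 members called lower were all AP-1 or stress genes: Fosl1, Jun at −1.09 ± 0.25 (adjusted p = 0.0389) and the early response gene Ier3 at −0.56 ± 0.08 (adjusted p = 0.014). Fos, the partner of Jun in AP-1, was higher on 2 of its 3 probe sets, by 0.98 ± 0.21 (adjusted p = 0.0327) and at least 1.86 ± 0.40 (adjusted p = 0.0327). The AP-1 subunits thus did not share a direction.

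**Figure D3:**
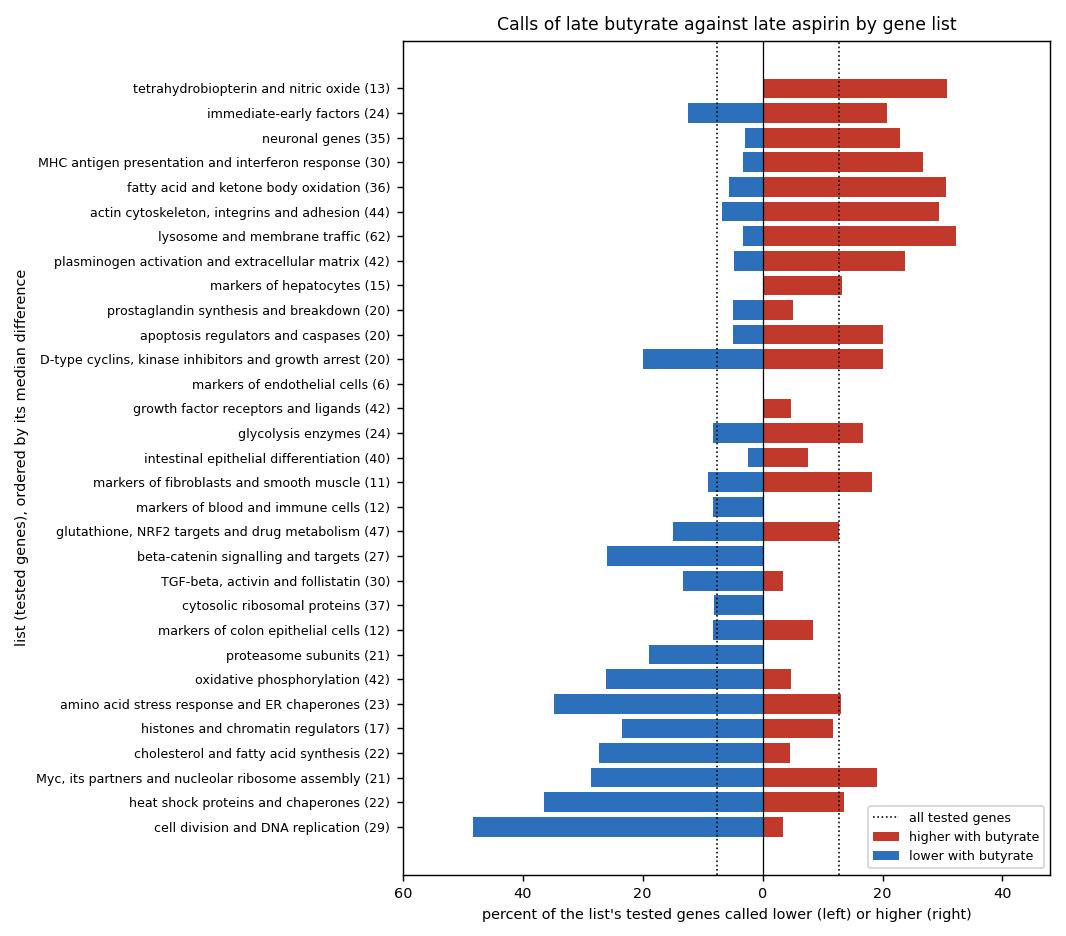
Percent of the tested genes of each list that were called lower (blue, left) or higher (red, right) with late butyrate against late aspirin, each gene by its brightest probe set; dotted lines mark all 3647 tested genes, 7.6% lower and 12.8% higher, and the number of tested genes is in brackets. Lists are ordered by their median difference, from −1.03 for cell division at the bottom to 0.63 for tetrahydrobiopterin and nitric oxide at the top.

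Energy metabolism differed by pathway. Genes of fatty acid and ketone body oxidation were more often higher with butyrate, itself a fatty acid, with 11 of 36 tested called higher, 2 lower and 23 neither (median 0.53). Cpt2, which loads acyl groups on the inner side of the mitochondrial membrane, read 1415, 1700 and 1557 against 508, 637 and 746, a difference of 1.32 ± 0.17 (adjusted p = 0.0124). Hadha, of the trifunctional protein of beta-oxidation, read 4243, 4393 and 4111 against 1880, 2240.0 and 2483, a difference of 0.96 ± 0.15 (adjusted p = 0.0165). Cpt1a, the entry enzyme, was nearer in both groups, at 4168, 3299 and 3577 against 2197, 2423 and 2079, a difference of 0.72 ± 0.14 (adjusted p = 0.0241). The carnitine carrier Slc25a20 and the ketone body enzyme Bdh1 were higher by 1.33 (adjusted p = 0.0347) and 1.32 (adjusted p = 0.0477). The 2 members lower with butyrate were Acsl5, an acyl-CoA synthetase, at −1.49 ± 0.15 (adjusted p = 0.00934) and Acat2, a cytosolic thiolase that also feeds cholesterol synthesis, at −1.73 (adjusted p = 0.0177), while Acsl3, another synthetase, was higher by 1.33 ± 0.21 (adjusted p = 0.017).

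Genes of cholesterol and fatty acid synthesis were called lower with butyrate more often than higher, with 6 of 22 tested called lower, 1 higher and 15 neither (median −0.37). Cyp51, lanosterol demethylase, read 2205, 1777 and 1233 with butyrate and 6164, 8528 and 8405 with aspirin, a difference of −2.17 ± 0.25 (adjusted p = 0.0102), and 4 of its 5 tested probe sets were called lower. Idi1, isopentenyl diphosphate isomerase, read 2330, 2541 and 1286 against 5504, 5392 and 5052, a difference of −1.43 ± 0.19 (adjusted p = 0.0125). Msmo1, Sqle and Fdft1, which act between farnesyl diphosphate and cholesterol, were lower by −1.19, −0.54 and −0.96 (adjusted p = 0.0181, 0.0224 and 0.0294). Idi1 read 1394 and 3438 on the 2 untreated arrays and Cyp51 2602 and 4621, so both lay above the untreated arrays with aspirin at every late hour. Fasn, fatty acid synthase, was lower on both probe sets, by −1.72 ± 0.25 (adjusted p = 0.0147) and −1.30 ± 0.28 (adjusted p = 0.0327). The 1 member called higher was Srebf1, the factor known to drive fatty acid synthesis genes, at least 1.62 ± 0.28 (adjusted p = 0.0207). It read 394, 324 and 237 with butyrate and lay at the floor on 2 of 3 aspirin arrays.

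The list of the amino acid stress response and chaperones of the endoplasmic reticulum went both ways. Of its 23 tested genes 8 were called lower, 3 higher and 12 neither (median −0.27). Psat1, the transaminase of serine synthesis, read 2657, 2769 and 1441 with butyrate and 13522, 12419 and 10630 with aspirin, a difference of −2.47 ± 0.19 (adjusted p = 0.00934). Phgdh, which precedes it in the pathway, read 3443, 2966 and 2487 against 6842, 7424 and 6452, a difference of −1.23 ± 0.16 (adjusted p = 0.0123). Asparagine synthetase, Asns, differed by −0.94 ± 0.15 (adjusted p = 0.0171), the amino acid transporter subunit Slc3a2 by −1.28 ± 0.15 (adjusted p = 0.0104), and the pseudokinase Trib3 by −2.47 ± 0.39 (adjusted p = 0.017). Ddit3, the stress factor CHOP, read 2134, 1738 and 1802 against 3005, 3445 and 4850, a difference of −0.97 ± 0.24 (adjusted p = 0.0474), and the untreated arrays read 542 and 1460.2. The members higher with butyrate fold proteins: P4hb, protein disulfide isomerase, by 1.22 ± 0.13 (adjusted p = 0.00989), Calr, calreticulin, by 0.89 (adjusted p = 0.0138), and Hsp90b1 by 0.53 (adjusted p = 0.0498).

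Heat shock proteins and chaperones were more often lower than higher. Of 22 tested, 8 were called lower with butyrate, 3 higher and 11 neither, with a median of −0.70. Both mitochondrial and cytosolic chaperones were among the lower ones. Hspd1, which forms the mitochondrial folding chamber, read 5230, 5638 and 4488 against 13592, 14689 and 11550 on the probe set with the larger difference, −1.37 ± 0.09 (adjusted p = 0.00934), and gave −0.93 ± 0.13 on its brighter one (adjusted p = 0.0136). Its lid Hspe1 differed by −0.79 ± 0.08 (adjusted p = 0.00934), and the mitochondrial HSP70 gene Hspa9 by −1.02 ± 0.14 (adjusted p = 0.0135). Of the cytosolic co-chaperones Fkbp4 differed by −1.50 ± 0.26 (adjusted p = 0.0193) and St13 by −0.81 ± 0.15 (adjusted p = 0.0217). The small heat shock protein gene Hspb1 was higher at 3326, 3560 and 5111 against 1267, 1568 and 2202, a difference of 1.26 ± 0.13 (adjusted p = 0.00934), and 3 of its 4 probe sets were called. Genes of oxidative phosphorylation lay mostly on the same side as the mitochondrial chaperones, with 11 of 42 called lower, 2 higher and 29 neither (median −0.26). Slc25a5, the ADP/ATP carrier, differed by −1.03 ± 0.11 (adjusted p = 0.00935), Ndufa9 of complex I by −1.19 ± 0.11 (adjusted p = 0.00934), and Cyc1 of complex III by −0.87 ± 0.11 (adjusted p = 0.0114). Of 24 tested glycolysis genes 4 (16.7%) were called higher and 2 (8.33%) lower, near the shares of all tested genes (12.8% and 7.6%). Pfkm, phosphofructokinase, was higher by 1.13 ± 0.17 (adjusted p = 0.0147), and Pkm, pyruvate kinase, lower by −0.35 ± 0.06 (adjusted p = 0.0176). The latter was not called with quantile normalization, and was called under 11 of 18 alternatives other than those without a late pair.

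Genes of antigen presentation and interferon response were more often higher with butyrate, with 8 of 30 tested called higher, 1 lower and 21 neither (median 0.53). RT1-DMb and RT1-DMa encode the chains that help load peptides on class II molecules. RT1-DMb read 515, 778 and 722 with butyrate and was below 0 on every aspirin array, at least 2.86 ± 0.20 (adjusted p = 0.00934), and RT1-DMa read 2578, 2399 and 1876 against 849, 873 and 699, a difference of 1.49 ± 0.15 (adjusted p = 0.00934). B2m, the invariant chain of class I molecules, was higher by 0.69 ± 0.14 (adjusted p = 0.0308), and the interferon-induced GTPase Mx1 by at least 1.55 ± 0.18 (adjusted p = 0.0108). The inducible proteasome subunits differed in direction. Psmb8 read 1373, 868 and 545 against 4515, 4794 and 5191, a difference of −2.48 ± 0.30 (adjusted p = 0.0109), while Psmb9 was higher by 1.14 (adjusted p = 0.0371). Subunits of the standard proteasome were on the lower side, with 4 of 21 called lower, 0 higher and a median of −0.24.

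Of the 31 lists, that of lysosomes and membrane traffic had the most genes called higher with butyrate, with 20 of 62 tested called higher, 2 lower and 40 neither (median 0.44). Among the called genes were coat proteins. The clathrin adaptor gene Ap1b1 read 3048, 1910 and 1429 against 515, 345 and 199, a difference of 2.63 ± 0.25 (adjusted p = 0.00934), and Ap2a2 differed by 2.08 ± 0.27 (adjusted p = 0.0122). Clathrin itself was higher for Clta, Cltb and Cltc, by 0.87, 0.70 and 0.76 (adjusted p = 0.0342, 0.0127 and 0.0133). Of the proton pump that acidifies lysosomes, 6 subunits were called higher: Atp6v0a1, Atp6v1a, Atp6v1b2, Atp6v1c1, Atp6v1d and Atp6v1f, by 0.81 to 2.00. Only its called subunits are given here, and 12.8% of all tested genes were called higher. Ctsd, the lysosomal protease cathepsin D, read 5487, 8482 and 9062 against 2049, 3546 and 4183, a difference of 1.26 ± 0.16 (adjusted p = 0.0118). Its groups were apart, and both had their lowest value at 12 h. The secretory GTPase gene Rab3d was higher by 2.56 ± 0.33 (adjusted p = 0.0119). The members lower with butyrate were the GTPase gene Arf6 and the protease gene Ctse, at −0.59 and −1.0 (adjusted p = 0.0205 and 0.0486).

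Cytoskeleton and adhesion genes had 13 of 44 tested called higher, 3 lower and 28 neither (median 0.48). Cnn1, the actin-binding protein calponin of smooth muscle, read 303, 400.0 and 472 with butyrate and was below the floor on all aspirin arrays, at least 2.08 ± 0.18 (adjusted p = 0.00934). Cnn1 passed the filter on dim probe sets only through its late butyrate arrays, so its p is no separate support. Jup, plakoglobin of desmosomes, read 3515, 2384 and 2248 against 932, 580.4 and 575, a difference of 1.97 ± 0.13 (adjusted p = 0.00934). Actn4, an actin crosslinker, read 4715, 4187 and 3427 against 1788, 1556 and 1395, a difference of 1.37 ± 0.13 (adjusted p = 0.00934). For Jup and Actn4 the untreated arrays were far apart, at 2565 and 1470 for Jup and 5857 and 1614 for Actn4. The adhesion molecule gene Icam1 was higher by at least 2.07 ± 0.30 (adjusted p = 0.0143). Pfn1, which supplies actin monomers, was lower by −0.78 (adjusted p = 0.0165). Actb, beta-actin, read 24228, 25040 and 24493 against 27908, 27773 and 30714, and its −0.23 ± 0.07 was not called (adjusted p = 0.0659). It was called with median centring (−0.49) and with the stricter filter.

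Plasminogen activation and the extracellular matrix had 10 of 42 tested genes called higher, 2 lower and 30 neither (median 0.31, and 0.04 with median centring). Plat, tissue plasminogen activator, read 1557, 1380 and 1403 with butyrate and 118, 83.7 and 169 with aspirin, at least 3.57 ± 0.40 (adjusted p = 0.01). Serpinb5, the epithelial serpin maspin, read 544, 748 and 858 against 43.7, 78.1 and 132, at least 2.78 ± 0.27 (adjusted p = 0.00934). Proteases that shed or cut surface proteins were higher too, with Adam10 at 1.85 (adjusted p = 0.0112) and Adam17 at 1.60 (adjusted p = 0.0428). Timp2, an inhibitor of metalloproteases, was lower at 2255, 2003 and 2479 against 4572, 3964 and 4332, a difference of −0.94 ± 0.11 (adjusted p = 0.0109). The collagen chaperone gene Serpinh1 was lower by −1.73 (adjusted p = 0.0482).

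Genes of the pathway that aspirin is known to act on included few called ones. Of 20 tested genes of prostaglandin synthesis and breakdown 1 was called higher, 1 lower and 18 neither (median 0.12, and −0.15 with median centring), and both called members were annexins that regulate phospholipase. Ptgs1, the constitutive cyclooxygenase, read 263, 224 and 248 with butyrate and 205, 276 and 336 with aspirin, with overlapping groups and a difference of −0.13 ± 0.26 (adjusted p = 0.756). Ptgs2, the inducible cyclooxygenase, was dim. One probe set lay below the floor on every butyrate array and read 118, 120 and 167 with aspirin, a difference of at least −0.55 ± 0.19 (adjusted p = 0.0996), and the other gave at least 0.28 ± 0.22 (adjusted p = 0.403). At these intensities, near the floor, a difference in Ptgs2 was not resolved. Anxa1 was higher by 0.48 ± 0.08 (adjusted p = 0.0203) and Anxa2 lower by −0.30 ± 0.06 (adjusted p = 0.0239). The first was not called with median centring and the second not with quantile normalization. Each was called under only 10 of 18 alternatives other than those without a late pair.

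Of 47 tested genes of glutathione and drug metabolism 6 (12.8%) were called higher and 7 (14.9%) lower. Of all tested genes 12.8% and 7.6% were. Gsta4, a transferase for lipid peroxidation products, was higher by 1.84 ± 0.32 (adjusted p = 0.0209), and Cat, catalase, by 1.43 ± 0.27 (adjusted p = 0.0243). The microsomal transferase genes Mgst1 and Mgst2 were lower by −1.08 ± 0.12 (adjusted p = 0.0101) and −1.02 ± 0.15 (adjusted p = 0.0143), and Gpx1, glutathione peroxidase, by −1.14 ± 0.17 (adjusted p = 0.0147). Among beta-catenin signalling and its targets 7 of 27 were called lower and 0 higher, and Myc, Ccnd1, Fosl1 and Jun, described above, are 4 of the 7. Of the others Ruvbl1, an ATPase of chromatin complexes, was lower by −1.22 ± 0.18 (adjusted p = 0.0151). Among histones and chromatin regulators, which include deacetylases, 4 of 17 were called lower and 2 higher. Hmgb1 and H2az1 were lower by −1.09 ± 0.10 (adjusted p = 0.00934) and −1.22 ± 0.16 (adjusted p = 0.0124), and the deacetylase genes Sirt2 and Hdac6 were higher by 1.20 ± 0.15 (adjusted p = 0.0118) and 1.03 (adjusted p = 0.0487). In the TGF-beta and activin list 4 of 30 were called lower and 1 higher. Beside Fst the lower ones were the signal transducer Smad2 at −1.23 ± 0.19 (adjusted p = 0.0167), the target Id3 at −1.75 ± 0.31 (adjusted p = 0.0211) and the receptor Tgfbr1 by at least −0.62 (adjusted p = 0.0318).

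Apoptosis regulators had 4 of 20 called higher and 1 lower, with the death-inducing mitochondrial genes Bnip3l and Diablo higher by 1.06 ± 0.21 (adjusted p = 0.0263) and 0.81 ± 0.13 (adjusted p = 0.0162), and Bok lower by −0.79 ± 0.16 (adjusted p = 0.0281). Intestinal differentiation genes had 3 of 40 called higher and 1 lower. Krt19 read 12115, 13298 and 17612 against 7056, 8438 and 9940.1, a difference of 0.75 ± 0.08 (adjusted p = 0.00989), the goblet cell peptide gene Tff3 was higher by at least 1.51 ± 0.24 (adjusted p = 0.0169), and the adhesion gene Epcam lower by −0.62 ± 0.12 (adjusted p = 0.024). Growth factor receptors and ligands had 2 of 42 called higher and 0 lower, the adaptor Grb2 and the neurotrophin receptor Ngfr, at 1.16 ± 0.18 (adjusted p = 0.0166) and 1.49 ± 0.36 (adjusted p = 0.044). Among hepatocyte markers 2 of 15 were called higher, Afp and Serpina1. Afp read 128 to 186 on the late butyrate arrays and lay below the floor on all others, so it passed the filter only through the late butyrate arrays. It was not called under 6 of 17 alternatives other than those without a late pair, its difference going from 0.74 to 0.0089 with the floor at the 5th percentile. Serpina1 was not called under 10 of 18 such alternatives, some of which left out a single late array. Of 12 tested markers of colon epithelial cells 1 was called higher and 1 lower. Among fibroblast markers Cnn1 and Thy1 were called higher and Vim, vimentin, lower at −0.67 ± 0.11 (adjusted p = 0.0169).

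The untreated arrays show which agent's level was away from that of untreated cells. Both comparisons below use the same 2 untreated arrays, so they are given side by side only. Of the 750 probe sets higher with butyrate, 591 had only the butyrate arrays above the untreated pair and 40 only the aspirin arrays below it. Both held for 45 and neither for 74. Of the 481 lower, the counts were 343, 53, 54 and 31 for butyrate below the pair and aspirin above it. Aspirin arrays beyond the pair on the same side as butyrate, as for Cpt1a, were not counted. These counts thus do not show that aspirin stayed at the untreated level. In the fit of all 12 arrays 1337 probe sets (21.9%) were called for late butyrate against untreated and 1 (0.0163%) for late aspirin against untreated, with 764 of the latter at an unadjusted p under 0.05. Myc was lower than untreated with butyrate, by −3.15 (adjusted p = 8.05e-05), and lay at −0.14 with aspirin (adjusted p = 0.882). Gchfr lay at 4.18 (adjusted p = 0.000219) and 0.79 (adjusted p = 0.519), and Rhob at 2.47 (adjusted p = 8.05e-05) and 0.26 (adjusted p = 0.63). Other genes had values away from untreated on the aspirin side. Cdkn2b lay at −0.01 with butyrate (adjusted p = 1) and 1.32 with aspirin (adjusted p = 0.232), Idi1 at −0.15 (adjusted p = 0.809) and 1.28 (adjusted p = 0.173), and Jup at 0.45 (adjusted p = 0.346) and −1.52 (adjusted p = 0.0907). Cpt1a lay above untreated with both, at 1.98 (adjusted p = 0.000201) and 1.26 (adjusted p = 0.0611). With 2 untreated arrays these values are less precise than those between the agents. The untreated arrays at 2 and 24 h differed from each other at least 2-fold at 1011 probe sets (16.5%). Untreated cells at 24 h differed so from late aspirin at 520, 475 and 811 at 12, 16 and 24 h, and from late butyrate at 1620, 1598 and 1740. The spread within the untreated pair enters both calls and counts, so the few calls for aspirin do not show that it had no effect.

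The early hours differed from each other in their counts. At 2 h 598 were at least 2-fold higher and 227 lower with butyrate, and at 6 h 1063 and 395, and over both hours limma called 0, with 1480 at an unadjusted p under 0.05. The difference between late and early was itself tested. No probe set was called in the fit paired by hour, with 759 at an unadjusted p under 0.05, and 20 were called in the fit of all 12 arrays without pairing, so the values below rest on the choice of fit. RT1-DMb differed by 0.08 at the early hours and 2.86 at the late ones, a change of 2.78 (adjusted p = 0.254 paired by hour and 0.0167 in the fit of 12 arrays). Padi2, a peptidylarginine deiminase that acts on histones, went from 0.24 to 2.89 on one of its probe sets (adjusted p = 0.254 and 0.0167), and Cnn1 from 0.00 to 2.08 (adjusted p = 0.254 and 0.0285). Cnn1 lay below the floor on all arrays other than those of late butyrate. Its early value of 0.00 was thus set by the floor and does not show equal levels. Il33 went from −0.29 to −3.57 (adjusted p = 0.255 and 0.0285). Its butyrate arrays read 11090 at 2 h and 6950 at 6 h, against aspirin arrays of 11302 and 10163. Psat1 went from 0.06 to −2.47 and Hspd1 from 0.04 to −1.37, each with adjusted p = 0.254 paired by hour and 0.0285 in the fit of 12 arrays. For these genes the late difference had no counterpart of its size at 2 h. Myc, Fst and Prnp were apart already at the early hours, with differences of −1.70, −2.88 and 3.27 on the probe sets given first above, and late minus early of −1.31, −0.77 and 0.51 (adjusted p = 0.303, 0.646 and 0.839).

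**Figure D4:**
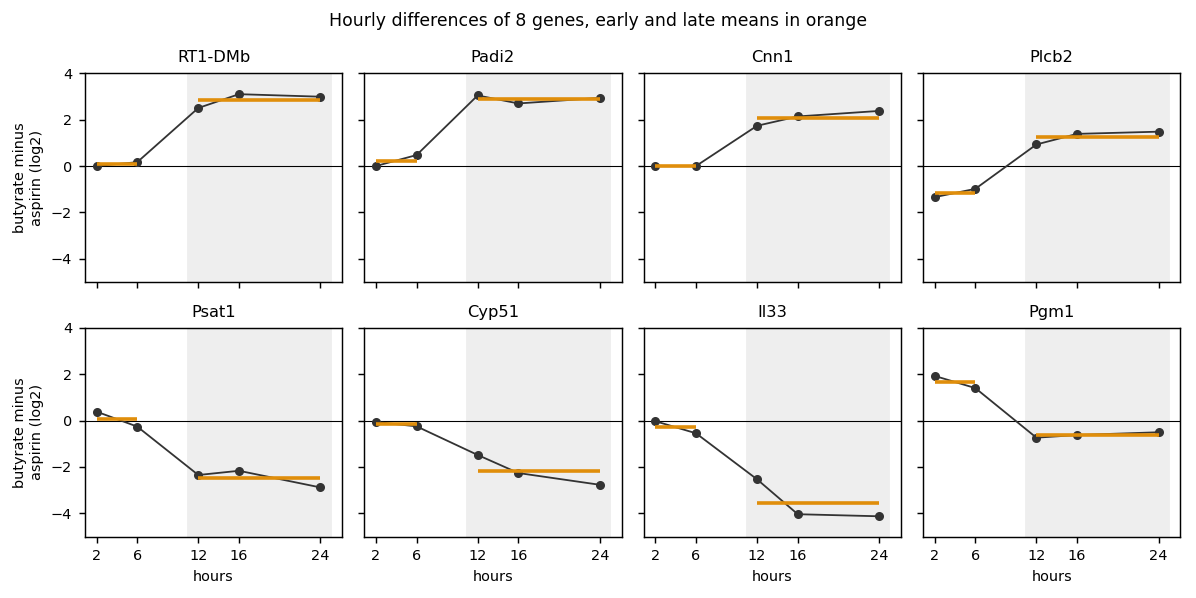
Difference between butyrate and aspirin (log2 intensity, vertical axis) at 2, 6, 12, 16 and 24 h for 8 genes, 1 pair of arrays at each hour; orange bars mark the means of the early (2 and 6 h) and late hours, and the grey band the late hours. The late means of RT1-DMb, Padi2, Cnn1 and Plcb2 lie above their early means by 2.08 to 2.78, and those of Psat1, Cyp51, Il33 and Pgm1 lie below theirs by at least a log2 of 2.02. At the early hours Cnn1 lay at the floor with both agents, so its early mean was set by the floor.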

How the data were processed

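The deposited table holds 1 intensity per probe set and array on a linear scale, as the authors gave it, with 21.5 to 25.1% of values below 0 on the 6 late arrays. How the authors scaled it, and with which software, is not given in the sources used here. Each array's mean of the deposited intensities, with 2% trimmed at each end, lay between 999.999 and 1000, so no further normalization was applied. Of 8740 probe sets other than controls, 7006 named 1 gene in the array annotation, 308 several and 1426 none, and only those with 1 gene are named.

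Values under the absolute 10th percentile (90.91, log2 6.51) were raised to it before log2; this was so for 13.4 to 20% of tested values on a late array. A filter at the 30th percentile of the mean log2 (6.54) removed 2622 probe sets. limma 3.58.1 in R 4.3.3 (lmFit, then eBayes with a variance trend) was fitted to the 10 treated arrays with hour as a block and separate early and late differences between the agents (3 residual and 2.21 prior degrees of freedom). The differences from untreated cells came from 5 group means over all 12 arrays. The p-values were adjusted by the Benjamini-Hochberg method over the 6118 tested probe sets, with a threshold of 0.05. The scripts were tested on simulated data.

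Named genes were the 14 largest differences each way among called probe sets whose groups did not overlap, up to 4 called members of each of 31 lists, the 3 smallest p each way for late minus early, and 17 genes given whether or not they were called, of which 1 is not reported here. Other genes were named to complete a list's account, after their values were seen. A list counts each gene by its brightest tested probe set. The members, lists and rules were chosen with earlier results of these data known. The labels give no scan or batch, so none was tested. Alternatives changed the floor, scaling, filter, variance trend, block and arrays fitted. The number of arrays limits the precision.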

Additional observations from a re-analysis of the deposited data

Results flagged for a closer look

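Pgm1, Plcb2, Psmc3 and Ptgs2 had butyrate minus aspirin differences that lay on opposite sides of 0 at every early and every late hour. Pgm1, phosphoglucomutase, changed by −2.28 from early to late on the log2 scale, from 1.66 to −0.62 on one dim probe set, while its other probe sets had late differences of at least 1.41 and −0.19. Plcb2, a phospholipase C, changed by 2.43, from −1.16 to at least 1.26 (adjusted p = 0.254 by limma for each of the 2 genes). Psmc3, a proteasome ATPase, changed by −0.93, from 0.09 to −0.84 (adjusted p = 0.255). Ptgs2, on its second probe set, changed by 0.71, from −0.43 to 0.28 (adjusted p = 0.501). None of the 4 changes passed the threshold in the fit paired by hour, while in the fit of 12 arrays Plcb2 (adjusted p = 0.0302) and Pgm1 (adjusted p = 0.0406) did.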

How the results depend on the processing

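The late counts of 750 higher and 481 lower became 283 and 183 without the filter, which tests more dim probe sets, and 1173 were lower with median centring. Leaving out arrays gave 0 to 685 higher and 0 to 453 lower, with 0 in both directions without the 12, 16 or 24 h pair, a fit with fewer arrays. Under the other alternatives both counts stayed within 1.5 times, and 1515 were called in all from the 6 late arrays without the replicate block against 1049 with it. Deviations of same-hour arrays correlated at 0.122, −0.0503 and 0.115, so the hours do not clearly pair the arrays. The late minus early count of 0 became 1 with the floor at 45.45, 2 without the filter, 5 with the stricter filter and 20 with 12 arrays and no block; leaving out single arrays or pairs gave 0 to 38.

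Of 140 named probe sets that were called, 65 were called under every alternative other than those without a late pair, and 0 reversed under any. Of the 14 not called, 6 were called under some. Signs turned only for uncalled dim probe sets, and the cause was not tested. The dimmer Cdkn1a set lay at −0.060 with quantile normalization and −0.27 with median centring. Without single arrays or pairs it lay at −0.21 to 0.21, one Ccnd1 set at −0.53 to 0.11, Ptgs1 at −0.37 to 0.039, the dimmest Egr1 set at −0.022 to 0.98 and the Ptgs2 set with the higher values at −0.19 to 0.57. Of 31 list medians 12 had another sign under some alternative. Signal near the floor limits every dim gene.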

Other observations

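Xdh and Creg1, in none of the lists, differed between the agents at the late hours, while at the early ones both agents lay at the floor. Xdh, the purine-degrading enzyme xanthine dehydrogenase, read 286, 312 and 367 at 12, 16 and 24 h with butyrate and was below the floor on every other array, a late difference of at least 1.82 ± 0.14 (adjusted p = 0.00934 by limma). Xdh thus passed the filter on dim probe sets only through its late butyrate arrays, so its p is no separate support. Creg1, a lysosomal glycoprotein, read 302, 243 and 302.0 with butyrate and was below the floor on every aspirin array, at least 1.63 ± 0.14 (adjusted p = 0.00934). These genes were chosen after their values were seen.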
